A study of Mus musculus and Rattus norvegicus with 12 samples.

Results

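The control samples of the series were set side by side across its 2 experiments: 3 mouse heart libraries and 3 libraries of neonatal rat ventricular cardiomyocytes (NRVCs), 6 of the 12 samples in all. The mouse controls, called flox hearts here, carried floxed alleles of Jmjd4 (Jmjd4f/f) with no Cre transgene named, received tamoxifen as the knockout animals did, and gave RNA from the heart apex on day 14 after tamoxifen. The rat controls, called siNC NRVCs here, were wild-type (WT) ventricular cells of Sprague-Dawley rats aged 1 day, pre-plated for 90 min to remove fast-attaching cells, kept for 24 h in 10% serum, moved to 0.25% serum and treated for 48 h with a control siRNA (si-NC). The labels give no age or strain for the mice. They also leave unsaid if each NRVC library is its own isolation of cells, so the p-values measure the spread between these libraries, which may be technical. Both sets are labelled cardiomyocytes, although the protocol describes apex tissue for the mice. Genes were members when their symbol, ignoring case, occurred exactly once in each deposited count table; 16066 of the 54087 mouse symbols and 28909 rat symbols paired.

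Species, age, tissue against culture, and the counting of each table change together between these groups and cannot be told apart, and a gene can be counted differently in the 2 species' annotations. A gene was therefore called only when the difference was at least 4-fold (2 on the log2 scale), the 3 values of each group did not overlap, and the Benjamini-Hochberg adjusted p of edgeR's quasi-likelihood test was below 0.05. Levels are given as CPM, counts scaled to a common library total and adjusted by the trimmed mean of M-values (TMM) over the paired genes, in replicate order 1, 2 and 3. The TMM factors ran from 0.443 to 1.363, and the lowest, in flox replicate 3, raised the CPM of that library. Actc1 counts of 567629, 596068 and 596358 in the flox hearts, for example, became 8838.5, 9447.6 and 22590 CPM. In bulk RNA, fewer cells of a type and less RNA per cell cannot be told apart.

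Total counts ranged from 72471146 to 80297797 in the flox hearts and from 57174654 to 64038149 in the NRVCs, of which 74.16 to 82.49% and 89.79 to 91.32% fell on paired genes. Replicate 3 stood apart in each group. Against the other replicates of its group, flox replicate 3 had more counts on short genes (median log2 difference 1.47 in the shortest of 5 length classes and -1.64 in the longest), and siNC replicate 3 leaned the same way (0.72 and -0.79). Mitochondrially encoded genes took 41.72% of all counts in flox replicate 3, 24.08 and 23.87% in flox replicates 1 and 2, and 4.53 to 5.07% in the NRVCs. Many results that rest on these libraries are given with and without them, but not every list count is.

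A heart before birth runs largely on glucose and lactate, its myocytes still divide, and its contractile and metabolic proteins are partly fetal isoforms. After birth, rodent ventricular myocytes leave the cell cycle, exchange these isoforms for adult ones, build dense mitochondria and turn to fatty acids as the main fuel. NRVCs are taken at the start of that change and then spread on a rigid dish, and non-myocytes that survive pre-plating can multiply among them.

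Of 12814 genes tested, 2169 were higher in the flox hearts (16.9%) and 1800 were higher in the NRVCs (14.0%). The groups did not overlap, whatever the size of the difference, for 29.8% of genes towards the hearts and 30.3% towards the NRVCs. With total counts as the only scaling, these numbers were 1203 and 2332, and the median difference over all genes moved from 0.08 to -0.54 on the log2 scale. The rank correlation between libraries across genes was 0.908 to 0.991 within the flox hearts, 0.953 to 0.990 within the NRVCs and 0.756 to 0.816 between them; genes are not independent replicates.

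The thick filament showed the exchange of motor isoforms most plainly. Myh6, the fast alpha myosin heavy chain of adult rodent ventricle, was at 29396, 26176 and 4913 CPM in the flox hearts and 1166, 1078 and 1417 CPM in the NRVCs. Myh7, the slow beta chain, ran the other way, at 582, 603 and 105 CPM against 6055, 5905 and 7440 CPM. In neither gene did the groups overlap. The differences were 4.05 ± 0.84 (SE) for Myh6 and -3.91 ± 0.80 for Myh7 on the log2 scale (flox hearts minus NRVCs; edgeR adjusted p = 0.0076 and 0.0071). Because both genes drop in flox replicate 3, their ratio is steadier than either level. Counted per transcript length, Myh6 made up 98.1, 97.8 and 97.9% of the pair in the flox hearts and 16.4, 15.7 and 16.3% in the NRVCs. The 2 genes lie in tandem and are similar in sequence, so some reads may be shared between them.

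Such shares were computed for 26 pairs of related genes, of which 25 could be measured; the first-named gene is the one known from mature muscle or adult heart. Its share was higher in all 3 flox hearts than in all 3 NRVC libraries for 22 pairs, lower for 2, and overlapped for 1, and 19 pairs differed by more than 20 percentage points in the first direction. With 3 samples against 3, an exact permutation test cannot go below p = 0.1, so these are descriptions of size. The share of genes without overlap given above (29.8% and 30.3%) is for levels of single genes. It is no direct background for shares within pairs, and none over other pairs is given. Tnni3, cardiac troponin I, made up 100.0 ± 0.00296% (SD, n = 3) of the Tnni3 and Tnni1 pair in the flox hearts and 46.9 ± 2.64% in the NRVCs, where the slow skeletal form Tnni1 was still abundant. Tnni1 was at 0.0779, 0.317 and 0.758 CPM in the flox hearts and at 329, 339 and 705 CPM in the NRVCs (log2 difference -10.29 ± 1.07, edgeR adjusted p = 0.00074; -11.16 without flox replicate 3). Among the actins, tropomyosins and light chains, the cardiac gene was in the majority on both sides but less so in culture: Tpm1 made up 99.8 ± 0.101% of the Tpm1 and Tpm2 pair against 65.7 ± 7.90%, Myl2 made up 99.97 ± 0.00325% of the pair with the atrial Myl7 against 67.2 ± 10.1%, and Actc1 made up 97.7 ± 0.632% of the pair with smooth muscle Acta2 against 68.6 ± 4.83%. The pair of Igf1 and Igf2 overlapped, at 48.0 to 65.3% Igf1 against 33.4 to 48.3%. The exceptions in direction were Tnnt2 with Tnnt1, where cardiac troponin T was above 99% on both sides, and Ccnd3 with Ccnd1, where cyclin D3 took 53.6 ± 13.1% in the flox hearts and 75.2 ± 1.88% in the NRVCs.

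**Figure D1:**
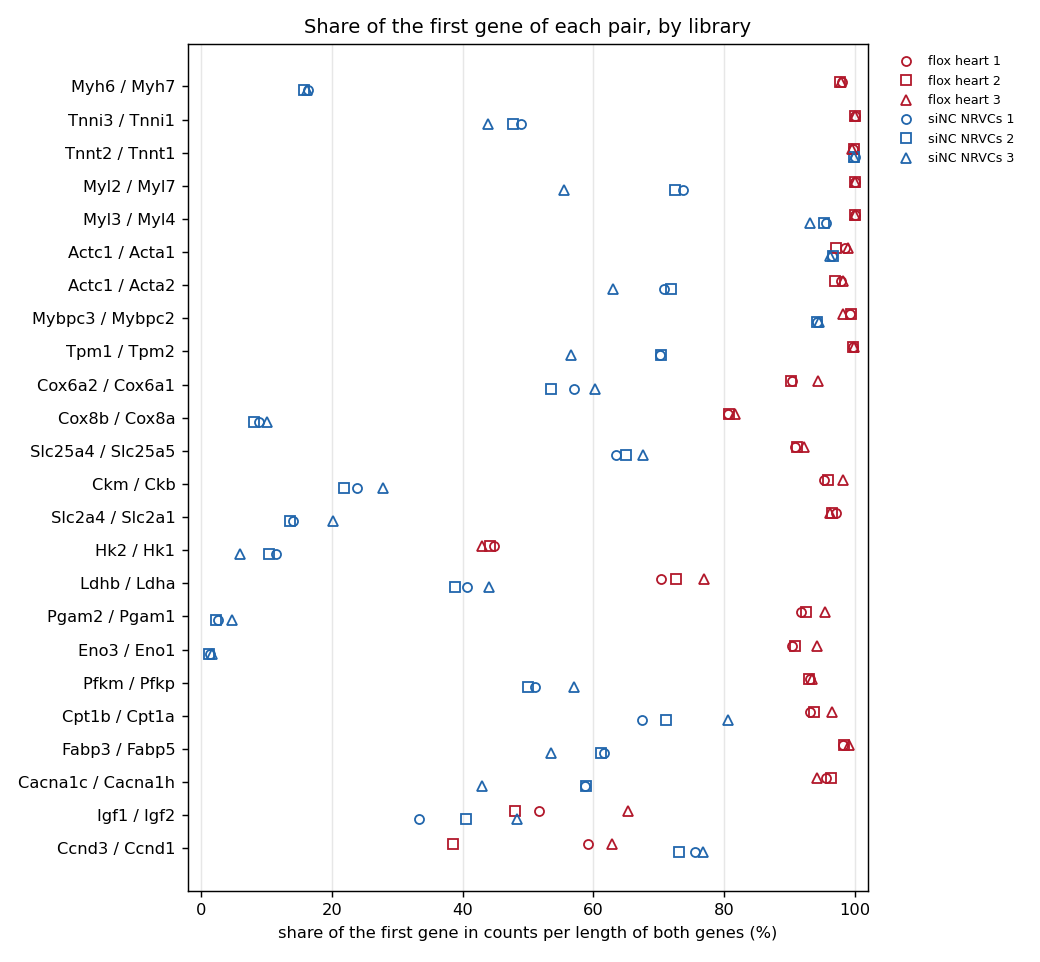
Share of the first-named gene in 24 of the pairs of related genes, in percent of the pair's counts per transcript length (x axis), for each of the 3 flox heart and 3 siNC NRVC libraries (one point per library, marker shape by replicate). In 21 of these pairs all flox points lie to the right of all NRVC points, with Eno3 near 92% against 1.42% at the wide end, Myh6 near 98% against 16%, and Tnnt2 near 100% in both.

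Other sarcomere and Z-disc genes were mostly higher in the flox hearts: 16 of 27 tested members were called higher there and 1, Myh7, in the NRVCs, with a median log2 difference of 2.51 against 0.08 over all genes. Myot, myotilin of the Z-disc, had 1433, 1000 and 1104 counts in the flox hearts and 0 in every NRVC library, which makes it at least 623-fold higher in the hearts against a floor of 3 counts per library. Here and for the other genes at 0 below, this floor does not cover a gene counted differently in the 2 annotations. Myom2, an M-band protein of the adult sarcomere, was at 1172, 1227 and 412 CPM against 39.5, 34.5 and 18.3 CPM (30.4-fold, edgeR adjusted p = 0.0017). Core contractile genes were among the most abundant in both: Tnnt2 lay at the 99.8th percentile of paired genes or above in all 6 libraries, with no call (log2 difference 1.70, edgeR adjusted p = 0.074), and Actc1 was likewise not called (1.04, edgeR adjusted p = 0.21). Myl2, the ventricular regulatory light chain, was at 3208, 3291 and 23057 CPM in the flox hearts and at 111, 128 and 146 CPM in the NRVCs. Its log2 difference of 6.26 fell to 4.68 without flox replicate 3, the library rich in short transcripts, and Tnni3 moved from 4.60 to 3.2 in the same way.

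**Figure D2:**
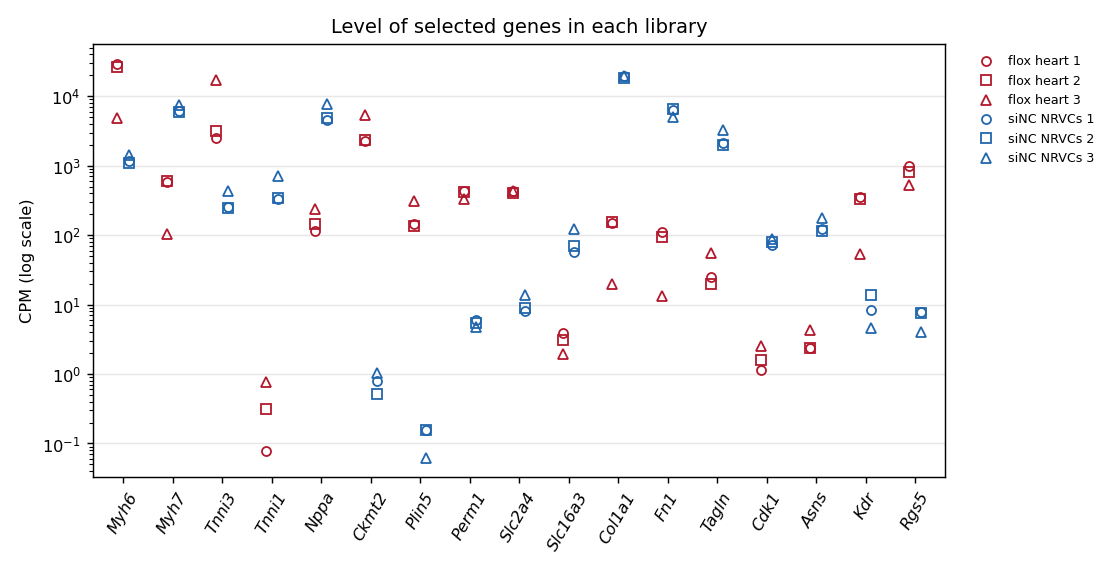
TMM-scaled CPM (log y axis) of 17 selected genes in each flox heart (red) and siNC NRVC library (blue), one point per library with marker shape by replicate. The groups do not overlap for any of the 17, and flox replicate 3 lies well away from the other flox hearts for Myh6, Myh7, Tnni3, Col1a1, Fn1 and Kdr.

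Genes of the fetal and stressed myocyte went the other way. Of 22 tested, 13 were called higher in the NRVCs and 1, the slow troponin T gene Tnnt1, in the flox hearts, with a median of -3.27. The NRVC count was 10 without siNC replicate 3 and 15 without flox replicate 3. Tnnt1 had a log2 difference of 4.35, which was 3.37 without flox replicate 3 and 5.08 without siNC replicate 3. Nppa, atrial natriuretic peptide, which the fetal ventricle also makes, was at 114, 145 and 235 CPM in the flox hearts and 4551, 4932 and 7850 CPM in the NRVCs (35.1-fold higher in the NRVCs, edgeR adjusted p = 0.0013). Nppb, the companion peptide used as a marker of wall stress, was at 161, 113 and 1316 CPM against 620, 674 and 536 CPM and was not called; without flox replicate 3 its log2 difference moved from -0.20 to -2.13. Acta1, skeletal alpha actin, overlapped between the groups, at 138, 279 and 247 CPM against 214, 211 and 294 CPM. Sln, sarcolipin, an atrial inhibitor of the calcium pump, had no count in the flox hearts and 231, 280 and 410 counts in the NRVCs, at least 64.1-fold higher. Myl4 and Myl7, the atrial light chains, were 28.8-fold and 19.2-fold higher in the NRVCs; both differences moved by more than 1.5 times without flox replicate 3 (Myl4 from -4.85 to -5.64, Myl7 from -4.26 to -5.96 on the log2 scale), and Myl7 was no longer called without siNC replicate 3. The YAP and serum-responsive gene Ctgf was at 73.7, 57.3 and 43.6 CPM against 2280, 2250 and 1704 CPM (35.7-fold, edgeR adjusted p = 0.00076).

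Excitation and calcium handling genes were higher in the flox hearts for 22 of 37 tested members and higher in the NRVCs for 3 (Sln, Bin1 and Fkbp1b). The calls of Bin1 (-2.14) and Fkbp1b (-2.33) were lost without siNC replicate 3 (-1.58 and -1.80), and that of Fkbp1b also without flox replicate 1 or 2 (-2.05 each). Ryr2, the calcium release channel of the sarcoplasmic reticulum, was at 2389, 1970 and 377 CPM against 124, 91.1 and 24.9 CPM, a log2 difference of 4.30 that was not called with total counts as the only scaling (3.89). Atp2a2, the calcium pump that refills the store, was at 15263, 14240 and 4016 CPM against 1050, 1029 and 787 CPM (11.7-fold, edgeR adjusted p = 0.0067). Kcnip2, the subunit that forms the transient outward potassium current with Kv4 channels, was at 143, 151 and 125 CPM in the flox hearts, whereas the NRVC libraries held 0, 3 and 0 counts. Corin, the protease that activates natriuretic peptides, was at 270, 228 and 76.7 CPM against 0.801, 0.587 and 0.188 CPM (362-fold, edgeR adjusted p = 0.00075), so the NRVCs were high in the Nppa hormone precursor and near the floor of its convertase. Gja1, connexin 43 of the gap junction, differed less (620, 676 and 543 CPM against 106, 91.6 and 50.3 CPM, 7.41-fold).

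Genes of fatty acid use were higher in the flox hearts: 29 of 33 tested members were higher in the flox hearts and none in the NRVCs, with a median log2 difference of 3.79. The order along the pathway shows that transport, activation, the carnitine step and the beta-oxidation spiral were all included. Lpl, lipoprotein lipase, which frees fatty acids from circulating lipoproteins, had a log2 difference of 5.19. Acsl1, which activates fatty acids to acyl-CoA, was at 1052, 1047 and 703 CPM against 31.7, 32.9 and 22.8 CPM (32.1-fold, edgeR adjusted p = 0.00069). Cpt1b, the muscle carnitine palmitoyltransferase that gates entry to mitochondria, was at 635, 664 and 377 CPM against 35.4, 35.8 and 50.2 CPM (13.8-fold, edgeR adjusted p = 0.0013). Hadh, the short-chain dehydrogenase of the spiral, was at 500, 553 and 1080 CPM against 26.8, 31.1 and 25.1 CPM (25.7-fold). Plin5, which coats the lipid droplets of oxidative tissues, was at 146, 136 and 314 CPM and 0.155, 0.157 and 0.0628 CPM, or 1555-fold higher in the flox hearts (edgeR adjusted p = 0.00054). Fabp3, the cytosolic carrier, was at 2720, 2993 and 16553 CPM against 169, 180 and 275 CPM; its log2 difference of 5.16 was 3.79 without flox replicate 3.

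Pyruvate oxidation and the tricarboxylic acid cycle followed, with 24 of 30 tested members higher in the flox hearts and none in the NRVCs (median 2.84); with total counts as the only scaling 15 were called. Cs, citrate synthase, was at 1787, 1778 and 1340 CPM against 180, 178 and 70.9 CPM (11.4-fold), and Sdha, the flavoprotein of succinate dehydrogenase, at 1631, 1729 and 2107 CPM against 228, 226 and 154 CPM (8.99-fold). Pdk2 and Pdk4, kinases that hold back pyruvate dehydrogenase, were also higher in the flox hearts, by 4.45 and 7.34 on the log2 scale; Pdk4 had 201, 123 and 0 counts in the NRVCs, and its difference was 8.22 without siNC replicate 1 and 6.76 without siNC replicate 3.

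For nuclear-encoded subunits of oxidative phosphorylation, 32 of 60 tested members were called higher in the flox hearts and none in the NRVCs (median 2.44), but this count rested on the libraries used: it was 12 without flox replicate 3 (median 1.297, with 1 then higher in the NRVCs), 10, 10 and 15 without siNC replicates 1, 2 and 3, 18 without both replicates 3, and 13 with total counts alone. In value, 58 of the 60 were higher in the flox hearts. All 12 paired genes of the mitochondrial genome were called higher in the hearts (median 4.10; 7 of 12 without siNC replicate 1 or 2). mt-Nd5, a subunit of complex I, was at 27367, 26076 and 44065 CPM against 1629, 1451 and 826 CPM (25.0-fold, edgeR adjusted p = 0.0022). Nuclear copies of mitochondrial sequence can take up such reads differently in the 2 genomes. Subunits with a muscle and a ubiquitous form shifted: Cox8b made up 81.0 ± 0.555% of its pair with Cox8a in the flox hearts and 8.107 to 10.1% in the NRVCs, and Cox6a2 made up 91.6 ± 2.35% of its pair with Cox6a1 against 53.6 to 60.3%. Cox7a1, the muscle form of subunit VIIa, was at 401, 442 and 3271 CPM against 0.295, 0.157 and 0.518 CPM, a log2 difference of 12.05 (10.37 without flox replicate 3). Ndufs6 and Cycs, listed at 0 and at 10.8 to 17.8 CPM in the NRVCs, have near-identical copies in rodent genomes and are uncertain.

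Regulators of mitochondrial genes were higher in the flox hearts for 11 of 21 tested and higher in the NRVCs for 1, Pprc1 (-2.31, not called without flox replicate 3 or without any 1 siNC replicate, at -1.81 to -2.36). Ppargc1a, the coactivator PGC-1 alpha, was at 156, 159 and 68.1 CPM against 2.74, 2.15 and 1.77 CPM (57.3-fold, edgeR adjusted p = 0.00062). Perm1, a muscle regulator acting with it, was at 438, 414 and 328 CPM against 5.96, 5.43 and 4.82 CPM (72.8-fold). Ppara, the nuclear receptor for fatty acids, was at 43.7, 41.7 and 17.0 CPM against 2.33, 2.52 and 1.26 CPM (16.8-fold). Rxrg, a retinoid X receptor that partners with it, had a log2 difference of 7.97 (7.16 without flox replicate 3).

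Glycolysis did not move as a block: 9 of 24 tested members were called higher in the flox hearts and 5 in the NRVCs, and the median of 0.46 became -0.04 with total counts as the only scaling. What differed was the isoform. Slc2a4, the insulin-responsive glucose transporter GLUT4, was at 428, 410 and 428 CPM in the flox hearts and at 7.97, 8.91 and 13.7 CPM in the NRVCs (41.4-fold, edgeR adjusted p = 0.00056), and it made up 96.6 ± 0.471% of its pair with the basal transporter Slc2a1 against 15.9 ± 3.67%. At the last steps of the pathway, muscle enolase Eno3 made up 91.8 ± 2.09% of its pair with Eno1 against 1.42 ± 0.274%, and muscle phosphoglycerate mutase Pgam2 made up 93.3 ± 1.95% of its pair with Pgam1 against 3.27 ± 1.34%. Pfkm, muscle phosphofructokinase, was 9.36-fold higher in the flox hearts (953, 1021 and 713 CPM against 87.0, 85.2 and 115 CPM) and made up 93.2 ± 0.281% of its pair with Pfkp against 52.7 ± 3.84%. Slc16a3, the lactate exporter MCT4, was at 3.88, 3.12 and 1.93 CPM against 57.2, 69.6 and 124 CPM (27.9-fold higher in the NRVCs, edgeR adjusted p = 0.00089). Aldoc, an aldolase better known from brain, was 128-fold higher in the NRVCs. Pkm, the pyruvate kinase gene named in the series title, was at 1117, 1188 and 1314 CPM against 810, 878 and 1115 CPM and was not called; its log2 difference of 0.37 turned to -0.23 with total counts alone, and gene counts do not separate its M1 and M2 splice forms. Gapdh has many processed copies and is not read here.

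Jmjd4, the gene targeted in the other samples of the series, was present in all 6 controls, at 23.3, 9.83 and 22.6 CPM in the flox hearts and 2.91, 3.72 and 0.816 CPM in the NRVCs. Its log2 difference of 2.90 ± 0.66 (edgeR adjusted p = 0.011) was no longer called with total counts as the only scaling (2.18).

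Breakdown of branched-chain amino acids and ketones was higher in the flox hearts for 14 of 20 tested members (8 with total counts alone) and in the NRVCs for none. Ppm1k, the phosphatase that activates the branched-chain ketoacid dehydrogenase, was at 128, 136 and 38.8 CPM against 6.24, 6.72 and 0.848 CPM. Bcat1, the cytosolic transaminase of the same amino acids typical of fetal and tumour cells, stood on the other side, at 2.07, 1.24 and 1.52 CPM against 167, 172 and 198 CPM (111-fold higher in the NRVCs, edgeR adjusted p = 0.00054). In the creatine system, the sarcomeric mitochondrial kinase Ckmt2 was at 2282, 2310 and 5335 CPM against 0.787, 0.509 and 1.05 CPM, a 4223-fold difference (edgeR adjusted p = 0.00054). The ubiquitous mitochondrial kinase Ckmt1 and the creatine-synthesis enzyme Gatm were higher in the NRVCs, by 7.74-fold and 5.31-fold. In the cytosol, muscle Ckm made up 96.5 ± 1.52% of its pair with brain-type Ckb in the flox hearts and 24.5 ± 3.11% in the NRVCs.

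**Figure D3:**
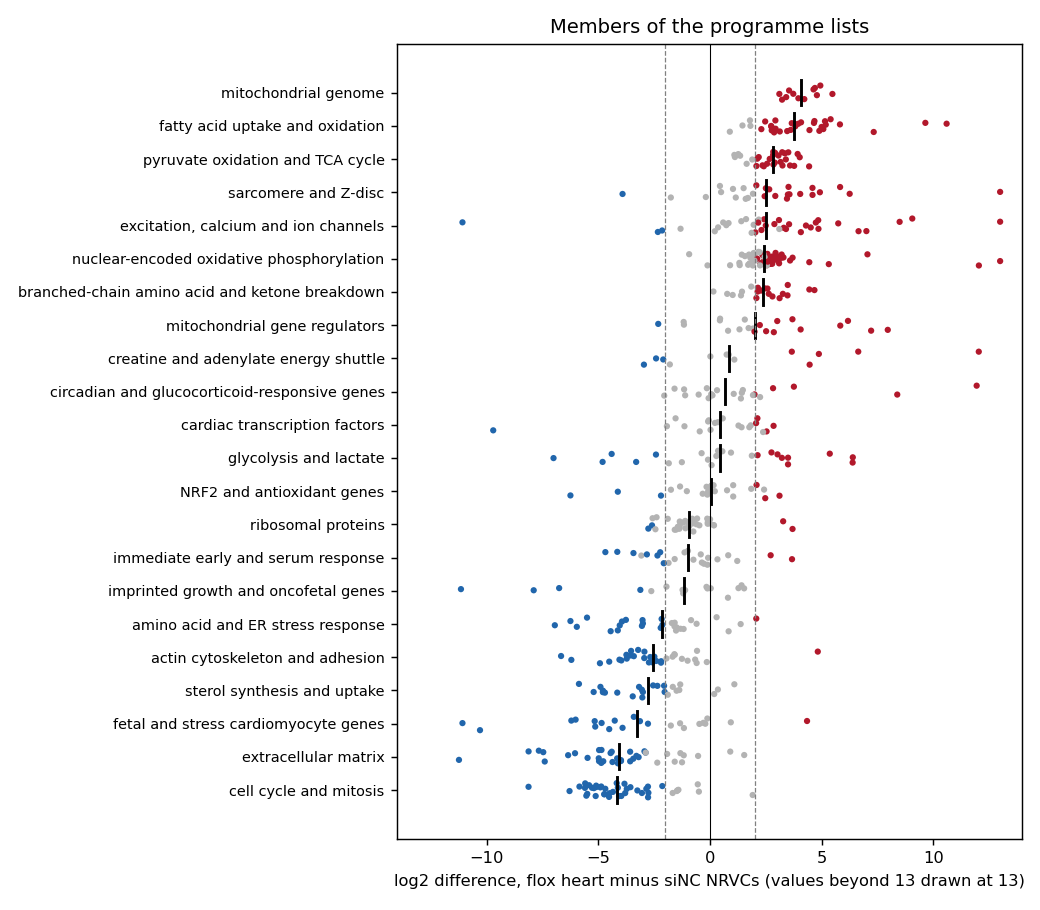
Log2 difference, flox heart minus siNC NRVCs (x axis), of each tested member of 22 gene lists, one point per gene, with members called higher in the hearts in red, higher in the NRVCs in blue and not called in grey, the list median as a black bar and dashed lines at 2 and -2. Values beyond 13 are drawn at 13, and fitted values of genes with no count in a group have no fixed size; the list medians run from 4.10 for the mitochondrial genome to -4.17 for cell cycle and mitosis.

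Extracellular matrix genes were higher in the culture: 28 of 38 tested members were called higher in the NRVCs and none in the flox hearts, with a median of -4.05. Col1a1, the main fibrillar collagen chain, was at 150, 157 and 19.8 CPM in the flox hearts and at 19566, 18318 and 19777 CPM in the NRVCs (176-fold, edgeR adjusted p = 0.0018). Fn1, fibronectin, was at 111, 94.9 and 13.1 CPM against 6342, 6482 and 5017 CPM (81.4-fold). Postn, periostin, a matricellular protein of activated fibroblasts, was at 64.4, 63.6 and 25.0 CPM against 1607, 1669 and 912 CPM (27.4-fold). Ltbp2, a microfibril protein, was 328-fold higher in the NRVCs (2.30, 4.17 and 1.21 CPM against 774, 766 and 994 CPM), and Spp1, osteopontin, 202-fold. Dcn, the proteoglycan decorin of resting fibroblasts, was not called and was higher in value in the flox hearts, at 471, 476 and 756 CPM against 216, 248 and 123 CPM.

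The actin cytoskeleton and adhesion list had 22 of 33 tested members higher in the NRVCs and 1 higher in the flox hearts (Tmsb10, a small gene with many copies that is uncertain). Tagln, an actin-binding protein of smooth muscle and of fetal myocytes, was at 25.3, 19.5 and 54.8 CPM against 2102, 1997 and 3243 CPM (73.7-fold, edgeR adjusted p = 0.00094). Cnn1, calponin, was 101-fold and Flna, filamin A, 16.6-fold higher in the NRVCs. Vim, vimentin, had a log2 difference of -3.74. Myl9, the regulatory light chain of non-sarcomeric myosin, was at 28.5, 27.5 and 77.5 CPM against 841, 860 and 2349 CPM; its difference of -4.92 was -5.58 without flox replicate 3 and -4.25 without siNC replicate 3. Some genes of this list, like several sarcomere genes, carry a CArG box, the site of serum response factor. In the actin list these were 4 of the 29 genes with a promoter sequence. The box was found, on either strand, in the 250 bases before the start in 12.1% of the promoters of the actin list and 18.2% of those of the sarcomere list, against 1.47% of all 32851 mouse RefSeq promoters. It was therefore present both in a list higher in culture and in a list higher in tissue. An example of each kind follows with the box in capitals, 60 bases 5′ to 3′ in the direction of the gene, from GRCm38.p6: Myl9 at chr2:156775278-156775337 on the plus strand, called higher in the NRVCs, and Actc1 at chr2:114052888-114052947 on the minus strand, not called.
Myl9: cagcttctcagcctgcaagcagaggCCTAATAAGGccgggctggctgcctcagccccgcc
Actc1: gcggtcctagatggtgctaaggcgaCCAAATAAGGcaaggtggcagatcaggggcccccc

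Genes of cell division were higher in the culture. Of 43 cell cycle and mitosis genes tested, 36 were called higher in the NRVCs and none in the flox hearts, with a median of -4.17. Mybl2, a transcription factor of the G1/S and G2/M gene programmes, was at 0.234, 0.206 and 0 CPM in the flox hearts and 33.2, 37.6 and 66.8 CPM in the NRVCs (278-fold, edgeR adjusted p = 0.00092). Cdk1, the kinase that drives entry into mitosis, was at 1.14, 1.58 and 2.50 CPM against 72.7, 79.2 and 88.3 CPM (46.3-fold), and Cdc20, an activator of the anaphase-promoting complex, was 48.3-fold higher in the NRVCs. Mki67, the marker of cycling cells, was 16.8-fold higher (10.9, 4.91 and 0.909 CPM against 119, 96.6 and 65.0 CPM); its log2 difference of -4.07 was -4.99 without flox replicate 1. Which cells in the dish were cycling cannot be read from bulk counts. The promoter elements known from such genes were frequent: the cell cycle homology region TTTGAA was in 26.3% of the list's promoters against 15.99% of all, and CCAAT in 76.3% against 33.9%, on either strand. The Cdk1 promoter at chr10:69352951-69353010 on the minus strand of GRCm38.p6 is shown as an example of a called gene, with TTTGAA in capitals.
Cdk1: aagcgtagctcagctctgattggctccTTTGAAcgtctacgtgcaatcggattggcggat

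For sterol synthesis and uptake, 16 of 24 tested members were called higher there and none in the flox hearts (median -2.77). Sqle, squalene epoxidase, was at 2.88, 2.06 and 1.97 CPM against 96.5, 88.3 and 70.8 CPM (36.9-fold higher in the NRVCs, edgeR adjusted p = 0.00054). Cyp51, lanosterol demethylase, was 26.0-fold higher (11.1, 12.6 and 13.3 CPM against 304, 297 and 363 CPM). A CCAAT box, the site of the factor NF-Y that works beside SREBP, was in 84.2% of the 19 promoters of this list. These promoters cover 16 of its genes, and the share over all promoters was 33.9%. The box was also frequent in other lists, among them cell cycle (76.3%), creatine (64.7%), and amino acid and endoplasmic reticulum stress (61.3%). It was in 52.4% of the promoters of the branched-chain and ketone list, which was higher in the flox hearts. It was less frequent in some, such as the fibroblast list (25.0%). A high share of the box is therefore not particular to the sterol list. The Cyp51 promoter at chr5:4104698-4104757 on the minus strand of GRCm38.p6 is shown with the CCAAT box in capitals.
Cyp51: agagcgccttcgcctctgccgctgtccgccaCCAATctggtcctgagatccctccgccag

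Of the amino acid and endoplasmic reticulum stress response, 15 of 28 tested members were higher in the NRVCs and 1, the chaperone gene Dnajb9, in the flox hearts (at 2.08, not called without flox replicate 3 or without siNC replicate 3, at 1.80 and 1.75). The members that passed were mainly enzymes and transporters of amino acids. Phgdh, the first enzyme of serine synthesis, was at 2.41, 0.983 and 2.58 CPM against 165, 163 and 405 CPM (123-fold, edgeR adjusted p = 0.00072). Asns, asparagine synthetase, was 45.3-fold and Slc7a5, the large neutral amino acid transporter, 62.2-fold higher in the NRVCs. Slc7a11, the cystine importer that feeds glutathione synthesis, was at 0.202, 0.143 and 0.417 CPM against 21.8, 20.2 and 13.3 CPM (75.8-fold). The composite element TGATGNAA bound by ATF4 with C/EBP partners was found, on either strand, in 25.8% of the promoters of the list against 3.45% of all, among them Asns and Slc7a11. The Slc7a11 promoter, at chr3:50443646-50443705 on the minus strand of GRCm38.p6, held 2 copies in opposite orientation, both in capitals. The motifs were chosen after the gene results were seen, and a match is only a description of the letters.
Slc7a11: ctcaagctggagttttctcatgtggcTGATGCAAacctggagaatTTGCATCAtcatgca

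Fetal growth genes were mixed. Of 16 imprinted and oncofetal genes tested, 4 were called higher in the NRVCs (7 with a correction for gene length) and none in the flox hearts. Igf2bp1, an RNA-binding protein of fetal tissues, had 0 counts in each flox heart and 418, 374 and 205 counts in the NRVCs, at least 67.2-fold higher. Dlk1, a fetal Notch-pathway ligand, was at 0.0623, 0.0792 and 0 CPM against 5.41, 4.73 and 8.05 CPM (108-fold, edgeR adjusted p = 0.0011). Igf2, the fetal growth factor, did not separate the groups, at 45.6, 59.9 and 26.7 CPM against 47.5, 49.6 and 49.8 CPM. Of genes that specify the cardiac lineage, 4 of 20 cardiac transcription factors were called higher in the flox hearts and 1 in the NRVCs. As a share of the list, the heart calls were not far from the 16.9% of all genes. The NRVC share was below the 14.0% of all genes. The heart count was 7 without flox replicate 3, 1 without siNC replicate 3 and 0 with total counts alone. Nkx2-5 was at 80.5, 77.3 and 87.4 CPM against 82.5, 86.1 and 167 CPM and Gata4 at 135, 131 and 87.2 CPM against 244, 248 and 287 CPM, and neither was called. Hand1, a regulator of the embryonic left ventricle, had no count in the flox hearts and 140, 140 and 85 counts in the NRVCs (at least 24.7-fold higher).

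Of immediate early and serum-responsive genes, 7 of 23 were higher in the NRVCs and 2, Fosl2 and Klf6, in the flox hearts; Fosl2 was not called with total counts alone. Myc was at 2.41, 2.27 and 1.21 CPM against 44.3, 42.6 and 18.1 CPM (17.7-fold, edgeR adjusted p = 0.0015), and Junb was 7.06-fold higher in the NRVCs. Of 22 circadian and glucocorticoid-responsive genes 5 were higher in the flox hearts and none in the NRVCs (3 with total counts alone, and 1 in the NRVCs with the replicate block). The heart share of 22.7% was not far from the 16.9% of all genes. Of the 5, Nr1d1 (2.00) was not called without flox replicate 1 or 2 or without siNC replicate 1 or 2. Hlf, an output factor of the clock, had 573, 680 and 122 counts in the flox hearts and none in the NRVCs (at least 189-fold), and Sgk1, a kinase induced by glucocorticoids, was 7.11-fold higher in the hearts. Of 22 antioxidant genes 3 were called on each side (13.6%, near the 16.9% and 14.0% of all genes), and 1 in the hearts and 4 in the NRVCs without siNC replicate 3 or with total counts alone. Tkt, transketolase of the pentose phosphate pathway, was 17.4-fold higher in the NRVCs, and Sod2, the mitochondrial superoxide dismutase, had a log2 difference of 3.12 in favour of the flox hearts (2.51 without flox replicate 3). Ribosomal protein genes, which are short, had 2 of 35 called on each side, but from 0 to 24 higher in the NRVCs depending on the libraries left out, so no direction is given for them.

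The other cell types of the heart were read from 11 marker lists. Endothelial markers were higher in the flox hearts for 14 of 20 tested and in the NRVCs for none. The heart count was 10 to 16 leaving out 1 library and 7 with total counts alone. The summed level of these markers was 3010.6 to 3420.0 CPM in the flox hearts and 691.5 to 877.9 CPM in the NRVCs. In flox replicate 3 much of that sum was Fabp4, a short fatty acid carrier gene also used by adipocytes, at 552, 536 and 1899 CPM in the flox hearts, while Kdr and Cdh5 (355, 326 and 42.4 CPM) were lowest there. Kdr, the receptor VEGFR2, was at 353, 333 and 53.2 CPM against 4.60 to 13.53 CPM (27.8-fold, edgeR adjusted p = 0.0041), and Ptprb, an endothelial phosphatase, was 88.2-fold higher in the flox hearts. Macrophage markers were higher in the flox hearts for 7 of 17 and in the NRVCs for 1, with a summed level of 679.8 to 1482.1 CPM against 454.7 to 746.7 CPM. Cd163 and Cx3cr1, which mark resident macrophages, had no count in any NRVC library and were at least 689-fold and 229-fold higher in the hearts, whereas the general marker Cd68 was at 9.37, 8.80 and 20.2 CPM against 20.6, 26.4 and 51.7 CPM and was not called. Lgals3, galectin 3, was the member higher in the NRVCs (log2 difference -4.94; -5.62 without flox replicate 3). Of 3 erythroid markers tested, 2 were called higher in the flox hearts and none in the NRVCs. Epb42, a red cell membrane protein chosen after its values were seen, was higher in value in the NRVCs and near the floor on both sides (0.0419 ± 0.0363 CPM against 0.270 ± 0.0617 CPM, SD, n = 3; log2 difference -2.47, not called, though 1 member was called higher in the NRVCs with the length correction). Hba-a2, alpha globin, was at 383, 117 and 699 CPM against 0.783 to 1.33 CPM (log2 difference 8.58; 7.92 without flox replicate 3), and Alas2, the erythroid 5-aminolevulinate synthase that starts haem synthesis, at 23.9, 6.45 and 15.5 CPM against 0.0843, 0.0522 and 0.0471 CPM (241-fold). The libraries labelled as cardiomyocytes from mice therefore held RNA of vessels, macrophages and blood.

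Mural cell markers were split. In value, 6 of 16 smooth muscle and pericyte markers were higher in the flox hearts and 10 in the NRVCs. Of the 16, 5 were called higher in the flox hearts and 6 in the NRVCs. The pericyte genes Rgs5 (994, 812 and 531 CPM against 7.71, 7.62 and 4.00 CPM, 121-fold, edgeR adjusted p = 0.00056), Kcnj8 (17.2-fold) and Abcc9 (28.9-fold) were among the first, although cardiomyocytes also use Abcc9 and Kcnj8 in potassium channels. The contractile genes Tagln, Cnn1, Acta2 and Lmod1 were among the second, and all but Lmod1 are also in the fetal or actin lists. The NRVC count of 6 was 4 or 5 leaving out 1 library and 9 with the length correction. Myh11, also among the 6, was not called when any 1 library was left out. Fibroblast markers were split too, with 3 of 18 higher in the flox hearts and 5 in the NRVCs. These are 16.7 and 27.8%, against 16.9 and 14.0% of all genes, so the heart share was near that of all genes. Of the 3, Mfap5 was not called without flox replicate 3 or without siNC replicate 1 or 2 (1.42, 1.78 and 1.92). The summed level of the list was 2481.9 to 3712.6 CPM against 32370 to 38914 CPM, carried by the collagens. Pdgfra, the receptor that marks cardiac fibroblasts, was at 65.4, 56.7 and 25.2 CPM against 110, 115 and 54.1 CPM, and Thy1 had a log2 difference of -1.73; neither was called. Pi16, a gene of quiescent fibroblasts, was at 110, 107 and 128 CPM in the flox hearts and 4.92, 6.81 and 12.9 CPM in the NRVCs (14.1-fold higher in the hearts, edgeR adjusted p = 0.0014), and Gsn, gelsolin, was 6.86-fold higher there. The part that non-myocyte numbers have in the matrix and cell cycle results was not tested.

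**Figure D4:**
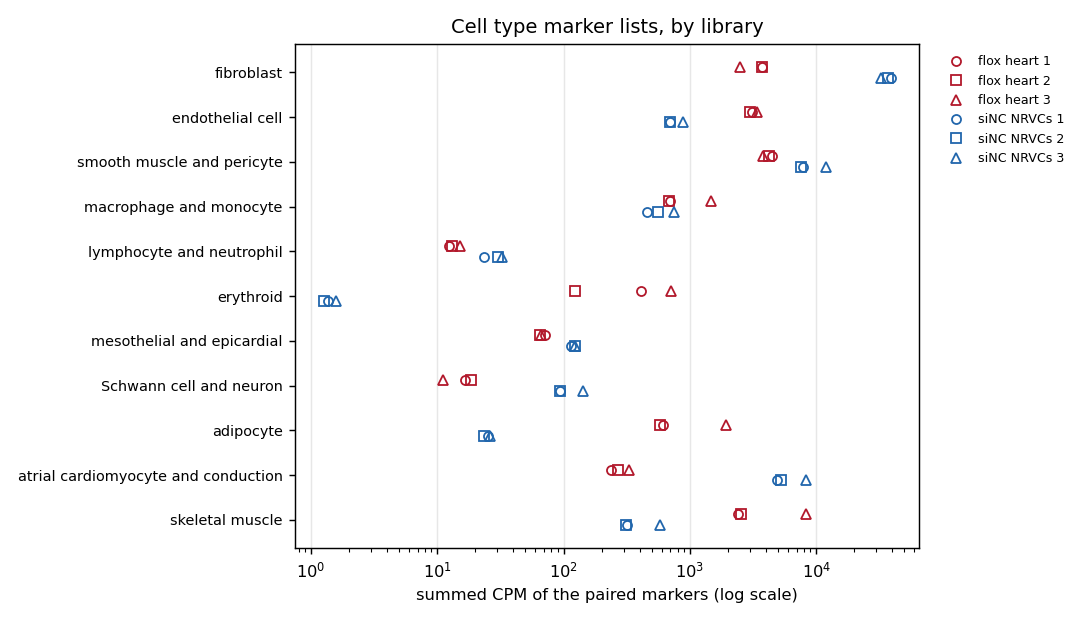
Summed TMM-scaled CPM (log axis) of the paired markers of each of 11 cell type lists, one point per library with marker shape by replicate. Endothelial and erythroid sums are higher in all 3 flox hearts, and the fibroblast sum is higher in all 3 NRVC libraries, at 32370 to 38914 CPM against 2481.9 to 3712.6 CPM.

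Smaller lists completed the picture. Of 10 lymphocyte and neutrophil markers tested, 5 were called higher in the flox hearts and 2, Cd4 and Mmp9, in the NRVCs (median log2 difference 2.43). All were low, and the summed levels ran the other way, at 12.3 to 15.3 CPM in the flox hearts and 23.7 to 32.6 CPM in the NRVCs; 7 of the 16 paired had no count in any NRVC library, among them Cd3e, Cd3d and Ms4a1. Of 11 mesothelial and epicardial markers, Upk3b was 21.8-fold higher in the flox hearts, and Krt18 and Aldh1a2 were higher in the NRVCs (Krt18 at -2.82, and -2.05 without siNC replicate 3). These calls are 9.1% and 18.2% of the list, against 16.9% and 14.0% of all genes. Of the atrial and conduction list, 6 of 14 were higher in the NRVCs and 2 in the flox hearts (4 without flox replicate 3, 5 without both replicates 3); Dkk3 was 56.6-fold higher in the NRVCs (4.13, 4.55 and 0.606 CPM against 175, 166 and 188 CPM). Of 12 skeletal muscle markers tested, 3 were called higher in the flox hearts (Ckm, Myl1 and Tnni2) and 3 in the NRVCs (Myh4, Myh3 and Tnnt3; 1 without siNC replicate 3). Myl1, a fast skeletal light chain, had a log2 difference of 7.52 (6.40 without flox replicate 3). Myh4, a fast skeletal myosin, had no count in the flox hearts and 516, 353 and 633 counts in the NRVCs (at least 105-fold higher), while the myogenic factors Myog and Myod1 were at 0 in the flox hearts and not tested. Of 8 Schwann cell and neuron markers tested, 1 was called on each side, Cdh19 in the hearts and Tubb3 in the NRVCs. That is 12.5% on each side, near the 16.9% and 14.0% of all genes. Leaving out 1 library gave up to 3 called in the hearts, without flox replicate 3, and 2 without any 1 siNC replicate. In the NRVCs it gave up to 2, without siNC replicate 2. Tubb3, a tubulin of neurons and dividing cells, was 212-fold higher in the NRVCs. Of 4 adipocyte markers tested, 2 were higher on each side, with 1 in the NRVCs without siNC replicate 3 or with the replicate block, where Cfd was not called, and 3 without siNC replicate 1. Adipoq, which defines the type, had 11, 0 and 0 counts in the flox hearts and none in the NRVCs.

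Percentile ranks within each library need no scaling between libraries, and are given here for the genes with the largest fitted differences. Among genes with at least 10 counts in all 6 libraries, the largest log2 differences towards the flox hearts included Cox7a1, Ckmt2, Ankrd23, Efcab2, Hba-a2, Corin, Adhfe1, Acss1, Rxrg and Vwa8. Ckmt2 lay at the 99.8th percentile of paired genes in each flox heart and between percentiles 27.8 and 33.3 in the NRVCs. Acss1, the mitochondrial acetyl-CoA synthetase that burns acetate, was at percentiles 99.0, 99.0 and 95.8 against 33.6, 33.9 and 38.6 (251-fold, edgeR adjusted p = 0.00054). Efcab2, a gene described mainly for cilia, was at percentiles 94.5, 94.1 and 95.3 against 23.7, 25.7 and 26.0 (139, 132 and 237 CPM against 0.197, 0.313 and 0.267 CPM, 648-fold). Vwa8, a mitochondrial ATPase, was 232-fold and Adhfe1, a hydroxyacid transhydrogenase, 305-fold higher in the hearts. At the other end were Ltbp2, Actg2, Gpnmb, Col1a1, Col8a2, Arhgef39, S100a4, Etv4, Phgdh, Serinc2, Bcat1 and Gpr176. Etv4, an ETS factor of growing tissues, was at percentiles 25.9, 24.2 and 29.9 in the flox hearts and 77.0, 78.1 and 86.7 in the NRVCs (124-fold, edgeR adjusted p = 0.00055), and Actg2, smooth muscle gamma actin, was 213-fold higher in the NRVCs. Gpnmb, a glycoprotein of lysosome-rich cells, was at percentiles 31.0, 36.2 and 32.5 against 98.0, 98.3 and 97.1; its log2 difference of -7.69 was -8.28 without flox replicate 2. Others that moved by more than 1.5 times when 1 library was left out were Ankrd23 (9.41 to 8.77), S100a4 (-7.06 to -8.14), both without flox replicate 3, and Serinc2 (-6.80 to -7.49, without flox replicate 2).

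**Figure D5:**
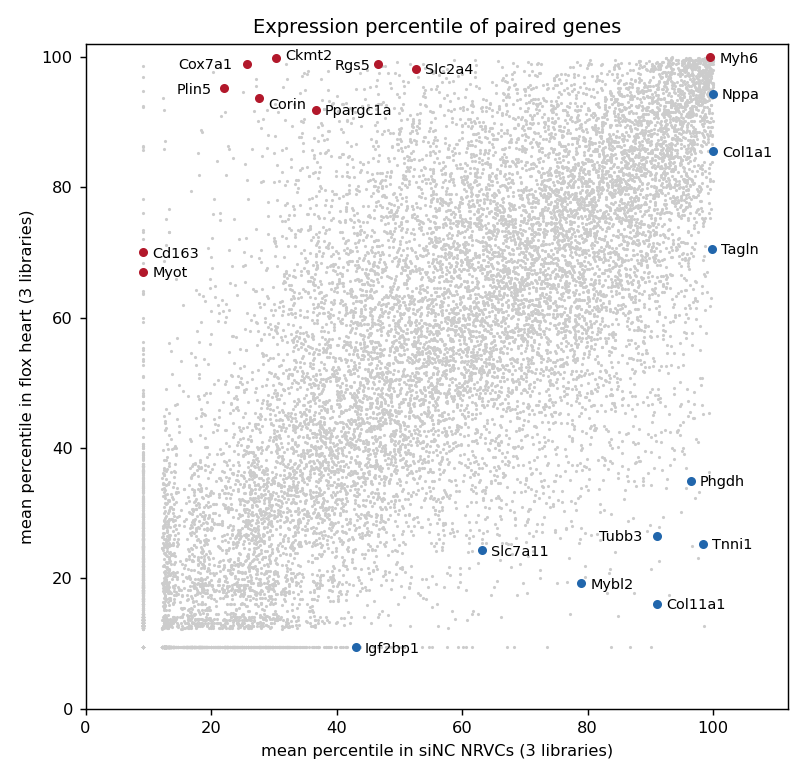
Mean percentile rank of each paired gene within the 3 siNC NRVC libraries (x axis) against the 3 flox hearts (y axis), one grey point per gene, with selected genes named, in red where called higher in the hearts and in blue where called higher in the NRVCs. Ckmt2, Cox7a1, Plin5 and Corin lie at the upper left, Myh6 at the upper right, where it is high in both, and Mybl2, Tubb3, Tnni1 and Phgdh at the lower right.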

How the data were processed

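RNA-seq gene counts of 6 control libraries were analysed. The authors deposited raw counts per gene symbol in a mouse and a rat table; the submitters' processing notes name HISAT2 2.1.0, StringTie 1.3.4, edgeR 3.20.9 and the builds mm10 and rn6, without roles, and do not record strand handling. Counts of 16066 paired genes were filtered with filterByExpr, scaled by TMM and fitted with edgeR 4.0.16 in R 4.3.3 (glmQLFit, robust), adjusting p-values over 12814 genes; DESeq2 1.42.0 was an alternative. The procedure was tested on simulated data. Log2 CPM used a prior count of 2. Transcript lengths for the shares are mouse GENCODE M21 lengths, used for both species, and 99.91% of tested genes had a length. Every pair of replicates differed by more than counting noise, with a chi-square of at least 25.9 times its degrees of freedom. Genes named are those of the isoform pairs, up to 5 called members per list and direction, the 12 largest called differences each way (at least 10 counts in every library and a mean of 10 CPM in the higher group), Jmjd4 and Pkm, list-defining members at 0, and 20 genes chosen after their values were seen (Ryr2, Atp2a2, Gja1, Nkx2-5, Gata4, Dcn, Pdgfra, Cdk1, Mki67, Cyp51, Nppb, Cdh5, Acsl1, Cs, Sdha, Fn1, Vim, Thy1, Lpl and Cd68); the comparison and the gene lists were chosen with earlier results of these data known. Epb42 was named in addition to these, also after its values were seen. Medians of lists were the same with genes at 0 set to their bounds. This says nothing on their stability, because a gene that stays on its side of the median cannot move it. Replicate numbers come from the labels. Same-numbered libraries deviated together (correlations of 0.263, 0.161 and 0.311), which the labels do not explain, since mouse and rat samples share no animal. In the same way siNC replicate 1 followed flox replicate 2 (0.248), and siNC replicate 2 followed flox replicate 1 (0.18) more closely than its own number. Replicate 3 of each group ran against replicates 1 and 2 of the other (-0.287 to -0.192). The gene-length trend split the libraries alike, with replicates 1 and 2 of both groups leaning to long genes and both replicates 3 to short genes. Its part in these correlations was not tested. Sequences are RefSeq promoters of GRCm38.p6, 250 bases before and 50 after each start. Values of some genes and 1 isoform pair are not reported here, although the counts over lists and pairs include them.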

Additional observations from a re-analysis of the deposited data

How the results depend on the processing

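With 3 libraries a group, 2 of them unlike their group in gene length bias, short and long genes carry the least certain differences, and counting differences between the species could not be removed. Genes higher in flox heart numbered 1203 with total counts alone and 1339 with a log2 minimum of 3; genes higher in siNC NRVCs numbered 1169 with that minimum and 1175 at a mean of at least 5 CPM. Leaving out 1 library gave 1887 to 2269 genes higher in flox heart and 1527 to 2014 higher in siNC NRVCs. The other settings stayed within 1.5 times, including the replicate block with 1981 and 1627. The log2 difference of some genes near 0 changed sign. That of Acta1 was 0.10 with the length trend as offset, and -0.31 to 0.14 leaving out 1 library. Over the same omissions Cox8a ran from -1.68 to 0.32, Igf2 from -0.43 to 0.13 and Nppb from -2.13 to 0.28. Igf2 was 0.12 without both replicates 3, and Pkm was -0.23 with total counts. The log2 difference of Ldha was -0.73 with total counts, -0.0020 with all 12 libraries, -0.050 with the replicate block, -0.0002 without mitochondrial genes, -0.36 without both replicates 3 and -0.46 to 0.32 leaving out 1 library. The cause was not tested.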
